A study of Homo sapiens with 15 samples.

Results

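The highest and the lowest concentration of dimethylamine vapour were compared in the A549 line, which derives from a human lung adenocarcinoma and keeps some features of the alveolar epithelium. The comparison took the 3 high dose arrays (HD, 81.7 ppm, exposure plate 6) and the 3 low dose arrays (LD, 14.9 ppm, exposure plate 1) of 15 arrays in all, chosen by the group and plate fields of the labels. It covered all 135750 transcript clusters of the Affymetrix Clariom D array, the gene-level units of that platform, as HD minus LD on the log2 signal. Cells were grown on membranes at an air-liquid interface and received the vapour from above for 60 min, with 23 h of recovery, in 3 cycles over 72 h. The mid dose (MD, 41.1 ppm, 3 arrays, plate 5), clean air (CA, the same flow without dimethylamine, 3 arrays) and non-exposed cells (NEC, no flow, 3 arrays) complete the series. All groups share the interface culture without a change of medium, and each array holds the pooled RNA of 2 wells of the same line. The study calls the 3 pools of a condition biological replicates. The p-values therefore describe how such pools vary, which may be technical, with 1 estimate of spread shared by all groups. In the fit without a plate term, differences between plates 1, 5 and 6 within CA and within NEC enter that spread, while HD and LD each lie on 1 plate.

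Dimethylamine is a volatile and alkaline amine that irritates the airways. The epithelium that meets such a vapour is known for a small set of answers. NF-kB, a family of transcription factors released by inhibitors that are themselves NF-kB targets, drives chemokines that call in leukocytes. The integrated stress response, through the factors ATF4 and CHOP, turns on genes of amino acid supply, and growth factor signals through the kinase ERK switch on immediate early genes and, shortly after, the phosphatases that end the signal.

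HD and LD never shared an exposure plate, so the dose and the plate cannot be told apart in HD minus LD itself. CA and NEC had 1 array each on plates 6 and 1, and plate 6 minus plate 1 in these 4 arrays is given beside many of the values. A second fit with the exposure plate as a block gave HD minus LD less the plate difference of the controls. In the layout given, a single plate cannot supply the wells for 3 pools of a dose, so one number could cover several plates, and the blocked values rest on that field.

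The 6 arrays were alike overall. Pairs correlated at r between 0.977 and 0.982 within HD or LD and between 0.974 and 0.979 across them. The mean of 6198 bright protein-coding clusters (mean log2 signal above 8) was 10.69, 10.98 and 11.12 in HD and 10.81, 10.98 and 10.43 in LD, lowest in LD replicate 3. Among 5994 bright protein-coding genes, taking 1 cluster per gene, 70.3% had a higher mean in HD, with a median HD minus LD of 0.18, and the same genes had a median plate 6 minus plate 1 of 0.30 in CA and 0.40 in NEC. Of 12 markers of A549 and epithelial identity 11 lay above the negative controls (4.67 on average over the arrays) in both groups, with KRT18 at 15.62 in HD and 14.87 in LD. The surfactant gene SFTPC, a marker of alveolar type II cells, lay below the negative controls, at 3.42 in HD and 3.36 in LD. The summed log2 level of 16 leukocyte markers was 97.62 to 100.40 in HD and 91.86 to 95.97 in LD. Of these 10 lay above the negative controls in HD and 9 in LD. CD79A, a B cell receptor gene, stood at 13.23 in HD and 11.70 in LD and met the criteria of the study given below, while the T cell gene CD3D and the B cell gene MS4A1 lay below the negative controls in both. The part of this list in the results was not tested. All samples were cultures of the A549 line, so these markers do not count leukocytes. In bulk RNA a change in every cell and a change in some of the cells cannot be told apart.

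The matrix protein FN1, the adhesion molecule NRCAM and the dehydrogenase ADH6 were lower in HD than in LD, and the chemokines CCL20 and CXCL8 and the NF-kB subunit NFKB2 were higher. Of 135750 clusters, 21 differed at an adjusted p below 0.05 (0.0155%), 10 higher (0.00737%) and 11 lower (0.0081%) in HD, and 11875 had an unadjusted p below 0.05. Of the 21, 10 carry a single gene symbol, or 0.0299% of 33458 genes. CCL20, NFKB2, CXCL8, SNAPC1, ZNF555 and ZNF57 were higher (6 genes, 0.0179%), and FN1, NRCAM, CATSPERB and ADH6 were lower (4 genes, 0.012%). Of the other 11 clusters, 1, higher in HD, carries several symbols and was not named, and 10 carry none. The 10 genes were free of overlap between the HD and LD arrays, as were 14% of all genes with HD higher and 3.43% with HD lower. The study itself set a fold change above 2 and a p, not adjusted, below 0.05, and 1470 clusters met these criteria (1.08%), 658 higher and 812 lower. With the arrays centred on their bright genes the split was 277 higher and 1987 lower, since that scaling moved the median of all clusters to -0.16, against 0.02 otherwise. Counted as genes, 318 of 33458 were higher (0.95%) and 77 lower (0.23%) under these criteria. With bright centring this split turned round, with 145 genes higher (0.433%) and 199 lower (0.595%), and with the plate block it was 761 higher (2.27%) and 589 lower (1.76%). Without these changes, 253 of 17622 protein-coding genes were higher at the criteria and 46 lower, and 125 and 27 of the 5994 bright ones. The gene lists below hold mostly protein-coding genes, so the share over all genes is a low reference for them. With the plate as a block no cluster was called by limma (smallest adjusted p = 0.23), while 11119 had an unadjusted p below 0.05 and all 21 kept their sign with an unadjusted p below 0.05. In simulated data the blocked fit recovered 15 of 50 planted 4-fold changes, against 44 of 50 without the block. A lack of calls there thus does not show that a difference is absent. At the criteria of the study the blocked fit had 3283 clusters higher (2.42%) and 3280 lower (2.42%).

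Fibronectin (FN1, chr2:215360865-215436068 in hg38, as all gene positions here), a glycoprotein of the extracellular matrix that integrins bind, differed most among the genes that were lower in HD. Its log2 signal was 9.94, 10.29 and 10.81 in HD and 13.46, 13.91 and 13 in LD. The groups lay more than 2 log2 units apart at their nearest arrays. FN1 fell by 3.11 (SE 0.34, n = 3 arrays per group, adjusted p = 0.00959), an 8.64-fold lower signal in HD. The controls differed far less between the plates, with 13.19 on plate 6 and 13.94 on plate 1 in CA, and 13.81 on plate 6 and 14.45 on plate 1 in NEC. With the plate block the difference was -2.41 (SE 0.46, unadjusted p = 0.000118, adjusted p = 0.384).

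NRCAM (chr7:108147649-108456720), a cell adhesion molecule of the immunoglobulin superfamily best known from neurons, stood at 9.58, 9.66 and 10.19 in HD and 11.94, 12.00 and 11.73 in LD. It fell by 2.08 (SE 0.28, adjusted p = 0.0263). Its plate 6 minus plate 1 was -0.80 in CA and -0.07 in NEC, so the CA arrays carried part of the same direction. CATSPERB (chr14:91580698-91732086), an auxiliary subunit of the CatSper calcium channel known from sperm, measured 11.38, 11.17 and 11.49 in HD and 13.20, 13.22 and 12.76 in LD. It fell by 1.72 (SE 0.21, adjusted p = 0.0197), against plate differences of -0.57 in CA and 0.05 in NEC.

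ADH6 (chr4:99202639-99219246), a member of the alcohol dehydrogenase family, measured 9.23, 8.50 and 9.09 in HD and 10.71, 10.95 and 10.17 in LD. It fell by 1.67 (SE 0.25, adjusted p = 0.0347). The plate differences had opposite signs in the controls, -0.36 in CA and 0.32 in NEC. Relative to the CA mean ADH6 stood at -2.52 in HD and -0.85 in LD. In LD the other 3 lay above the CA mean, FN1 by 0.06, NRCAM by 0.40 and CATSPERB by 0.18.

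**Figure D1:**
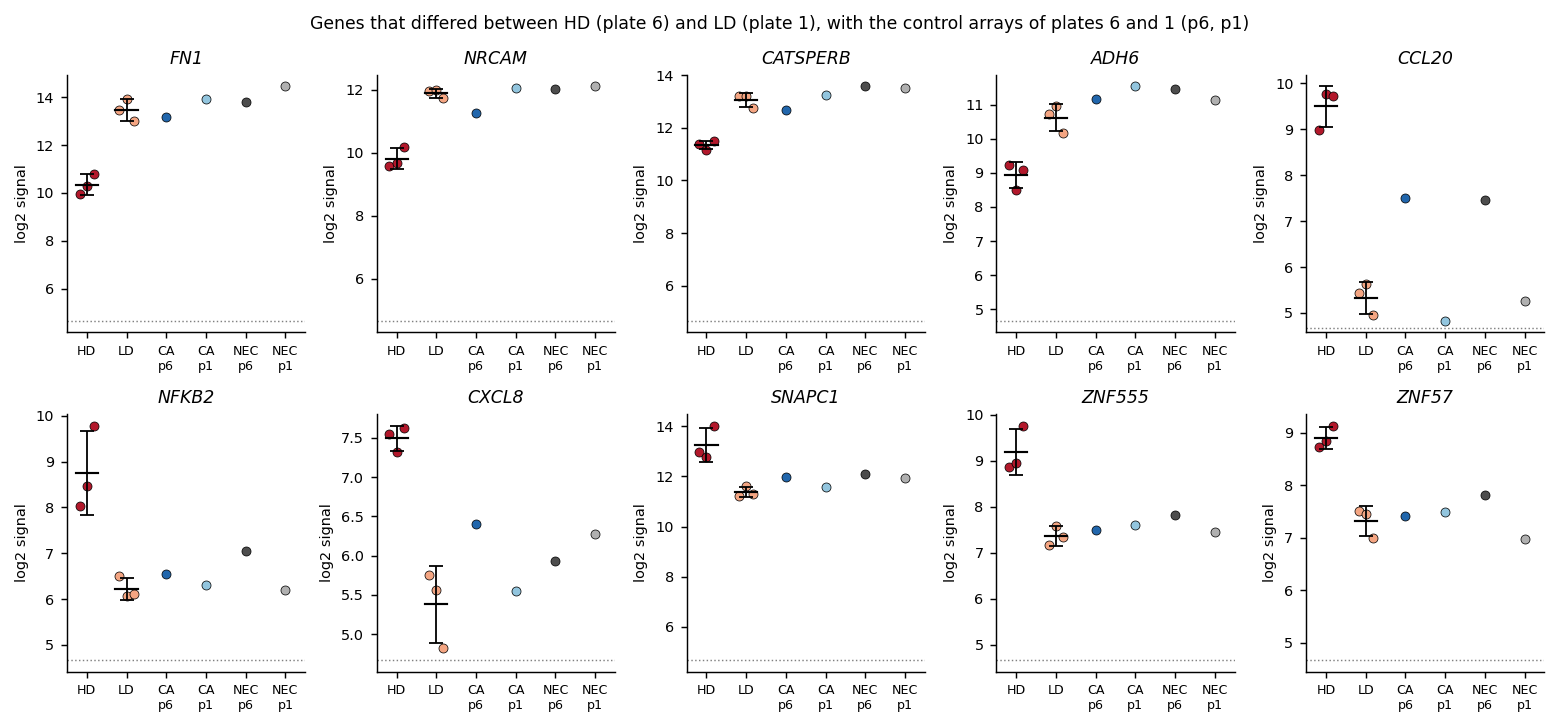
Log2 signal (y axis) of the 10 genes called between HD and LD, with each array as a point, group means and SD as bars for the 3 HD and 3 LD arrays, and the single CA and NEC arrays of plates 6 (p6) and 1 (p1). The dotted line is the mean of the negative controls at 4.67. FN1, NRCAM, CATSPERB and ADH6 sit lower in HD than in LD and than all 4 control arrays, and for CCL20 the plate 6 controls sit between HD and LD.

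Below these the rule for naming went on to 6 genes that did not pass the adjusted p, met the criteria of the study and had no overlap between the groups. F5, coagulation factor V, had 9.63, 9.67 and 10.39 in HD and 11.26, 11.89 and 10.98 in LD, a difference of -1.48 (SE 0.26, adjusted p = 0.0718), with plate differences of -0.06 in CA and -0.04 in NEC. IL33, a nuclear cytokine that epithelial cells release on damage, had 9.49, 9.71 and 9.48 in HD and 11.39, 11.39 and 10.27 in LD, a difference of -1.45 (adjusted p = 0.0935). SLITRK6, a transmembrane protein with leucine-rich repeats, differed by -1.61 (adjusted p = 0.0718) and SEMA3E, a secreted semaphorin, by -1.48 (adjusted p = 0.133). SEMA3E lay below the negative controls in all 3 HD arrays, and against these the LD signal was at least 1.65-fold higher. In IL33, SLITRK6 and SEMA3E both controls had the opposite sign, at 0.07 and 0.32 for IL33, 0.09 and 0.71 for SLITRK6, and 0.27 and 0.15 for SEMA3E in CA and NEC. The U7 RNA pseudogene RNU7-195P (-1.87, adjusted p = 0.0515) and the long non-coding RNA LINC00993 (-1.56, adjusted p = 0.0543) complete the group.

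FN1 and F5 belong to a list of proteins that the liver secretes into plasma and that A549 cells also express. Of its 29 measured genes, 1 was called (FN1) and 6 were lower under the criteria of the study, against 0.23% of all genes, and none was higher. This list and those below were chosen with earlier results of these data known, so a count above the share of all genes is no independent support. The median HD minus LD over the list was -0.18, against 0.13 over all 33458 genes, and 17 of 29 genes were lower in HD. The other 4 were C4BPA, which holds back complement at the C4 step (9.83 in HD, 11.25 in LD, adjusted p = 0.0742), APOH, a phospholipid-binding plasma glycoprotein (12.12 in HD, 13.38 in LD), the complement component C5 (11.23 in HD, 12.28 in LD) and complement factor B (CFB, 9.53 in HD, 10.65 in LD). None of the 6 had both control differences at 0.5 times its size or more in the same direction, and in C5 both controls went the other way. C5 and CFB were named after their values were seen, as were ADH4, NFKBIA, ASNS, ATF4, PHGDH, JUN and MYC. With the arrays centred on their bright genes, 7 members met the criteria, all lower, against 0.595% of all genes, and with the plate block 11 did, all lower, against 1.76%.

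The alcohol and aldehyde dehydrogenases gave a similar count in a smaller list, with 4 of 15 genes lower under the criteria (ADH6, ADH1C, ADH1B and ADH4) and none higher. Of all genes 0.23% were lower. The median of the list was -0.27. ADH1C had 6.64, 6.67 and 7.03 in HD and 8.84, 8.71 and 7.05 in LD, so that LD replicate 3 nearly reached the HD arrays (difference -1.42, adjusted p = 0.224). ADH1B and ADH4 overlapped between the groups through the same array, at 6.69 and 4.87 in LD replicate 3. The ADH genes lie side by side on chromosome 4. The near-identical sequences of ADH1B and ADH1C could share probes, so both are uncertain as separate values.

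The NF-kB subunit NFKB2 (chr10:102394110-102402529), whose p100 product is processed to p52 in the non-canonical branch of the pathway, was higher in HD. Its log2 signal was 8.03, 8.46 and 9.79 in HD and 6.50, 6.06 and 6.10 in LD, with HD replicate 3 farthest from LD. NFKB2 rose by 2.54 (SE 0.37, adjusted p = 0.0345), a 5.80-fold higher signal, against plate differences of 0.23 in CA and 0.86 in NEC and a blocked difference of 1.99 (SE 0.57, adjusted p = 0.412).

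CXCL8 (chr4:73740569-73743716), the neutrophil chemokine interleukin 8, had 7.54, 7.32 and 7.63 in HD and 5.75, 5.56 and 4.82 in LD. It rose by 2.12 (SE 0.31, adjusted p = 0.0345), and the controls differed by 0.85 in CA and -0.34 in NEC. The promoter of CXCL8 is shown because it belongs to a called chemokine and holds the AP-1 motif TGANTCA (capitals), a match found on either strand in 7.71% of 35116 RefSeq promoter windows of 300 bases. The window spans the start of the gene (GRCh38.p14, chr4:73740319-73740618, plus strand). Of 21 matched genes of the NF-kB and cytokine list, 2 held the motif in at least 1 window, CXCL8 and IL1A. Among 15 matched AP-1 and immediate early genes 1 did. Such counts are per gene, and a gene can have several windows, so they are not on the scale of the share over windows. Binding to the motif was not tested.
CXCL8: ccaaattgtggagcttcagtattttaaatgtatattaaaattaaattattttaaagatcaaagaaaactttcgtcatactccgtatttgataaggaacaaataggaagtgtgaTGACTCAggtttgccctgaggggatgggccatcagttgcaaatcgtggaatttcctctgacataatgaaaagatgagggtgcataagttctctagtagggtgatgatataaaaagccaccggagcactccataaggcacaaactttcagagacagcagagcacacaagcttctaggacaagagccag

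CCL20 (chr2:227813842-227817556), the chemokine ligand of the receptor CCR6, had the largest difference of the called genes. Its log2 signal was 8.99, 9.77 and 9.73 in HD and 5.43, 5.62 and 4.95 in LD, where it lay close to the negative controls. CCL20 rose by 4.16 (SE 0.60, adjusted p = 0.0345), a 17.9-fold higher signal. It was also the only called gene whose controls both differed by 0.5 times that or more in the same direction. The controls had 7.50 on plate 6 and 4.83 on plate 1 in CA, and 7.45 on plate 6 and 5.27 on plate 1 in NEC. Plate differences in CA and NEC widen the SE of the unblocked fit (0.96 for EGR1, 0.68 for AKAP12), so genes with large ones were hard to call. That the other called genes have smaller ones is thus partly set by the test. The blocked difference was 1.74 (SE 0.47, unadjusted p = 0.00219, adjusted p = 0.392).

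Of 25 measured genes of NF-kB and epithelial cytokines, 3 were called and 5 met the criteria of the study, all higher, against 0.95% of all genes, and the median HD minus LD was 0.39. TNFAIP3, the deubiquitinase A20 that shuts NF-kB off, had 9.14, 9.46 and 10.64 in HD and 7.83, 8.02 and 6.77 in LD, a difference of 2.21 (SE 0.41, adjusted p = 0.092), with plate differences of 0.46 in CA and -0.17 in NEC. NFKBIA, the inhibitor IkB-alpha, differed by 1.43 (adjusted p = 0.212), with 0.57 in CA and 1.25 in NEC. IL1RL1, the receptor ST2 that binds IL33, measured 5.48, 7.44 and 6.98 in HD and 4.27, 4.75 and 3.17 in LD, a difference of 2.57 (SE 0.44, adjusted p = 0.0718). Only 1 of the 3 LD arrays lay above its own negative controls, and with LD set to no less than these the HD signal was at least 4.41-fold higher. MD (4.08), LD (4.06), CA (4.24) and NEC (4.12) all averaged below the negative controls, so no order among them and no plate difference in the controls can be read for IL1RL1.

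The 3 remaining called genes act in the nucleus. SNAPC1 (chr14:61762420-61796428), a subunit of the complex that activates small nuclear RNA genes, had 12.96, 12.76 and 14.03 in HD and 11.23, 11.61 and 11.29 in LD. It rose by 1.87 (SE 0.27, adjusted p = 0.0345), with plate differences of 0.37 in CA and 0.18 in NEC. The zinc finger gene ZNF555 (chr19:2841475-2860471) had 8.86, 8.94 and 9.77 in HD and 7.16, 7.59 and 7.34 in LD, and rose by 1.83 (SE 0.23, adjusted p = 0.0197). ZNF57 (chr19:2900928-2918473), which lies close to it, had 8.74, 8.84 and 9.14 in HD and 7.51, 7.45 and 6.99 in LD. It rose by 1.59 (SE 0.24, adjusted p = 0.0369) and was not called with the arrays centred on bright genes (1.40, adjusted p = 0.0668). As members of 1 zinc finger family, both may share probes with related genes.

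**Figure D2:**
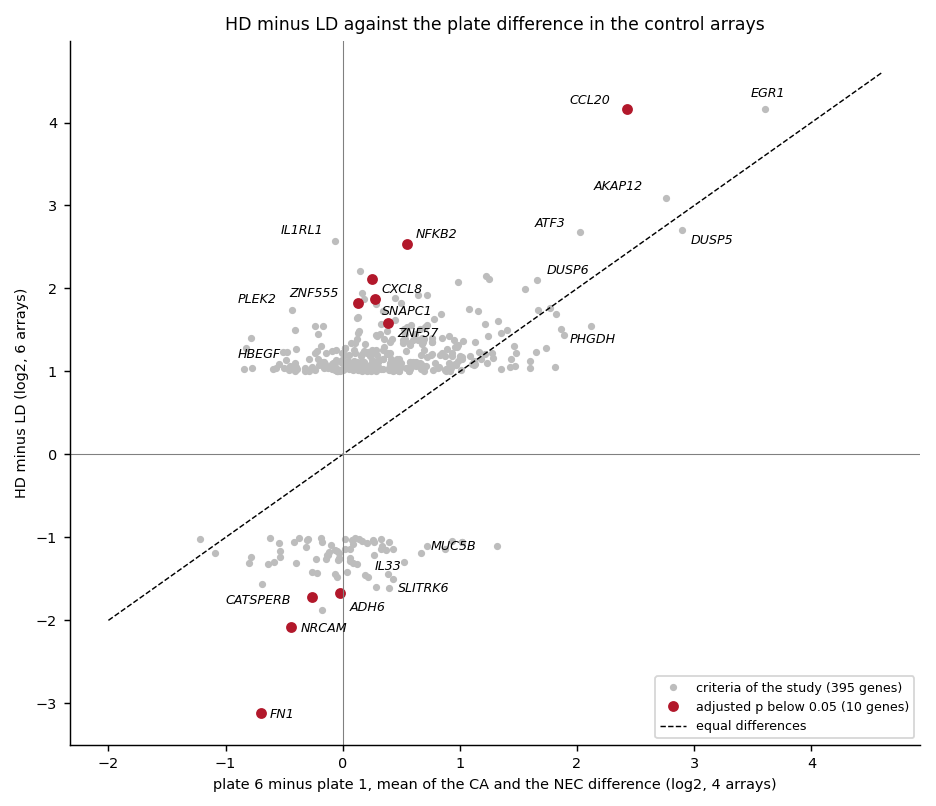
HD minus LD (y axis, log2) against plate 6 minus plate 1 averaged over CA and NEC (x axis, log2) for the 395 genes at the criteria of the study, with the 10 called genes in red and equality as the dashed line. The called genes other than CCL20 sit between -0.70 and 0.54 on the x axis, which is partly set by the test, since plate differences in the controls widen its SE. EGR1, AKAP12, DUSP5 and ATF3 sit far to the right, near or moderately above the dashed line.

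These calls leaned on few arrays. Without HD replicate 1, 4 clusters were called, 3 of them among the 21. Without HD replicate 2 there were 5, of which 4 were among the 21, and without HD replicate 3 there was 1, also among them. Without LD replicate 1 or 2 there were 0, and without LD replicate 3 there were 23, of which 10 were among the 21. Of the 10 genes, FN1, ZNF555 and NFKB2 stayed called without HD replicate 1, FN1, ZNF555 and SNAPC1 without HD replicate 2, and FN1 without HD replicate 3. ZNF555, FN1, NRCAM, CATSPERB and ADH6 stayed called without LD replicate 3. Without LD replicate 1 or 2 none of the 10 was called, at adjusted p between 0.104 and 0.158. The differences themselves moved little in these fits, between -3.34 and -2.88 for FN1, 2.02 and 2.90 for NFKB2, 3.97 and 4.42 for CCL20 and 1.84 and 2.31 for CXCL8.

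MD, which had its own plate, lay between LD and HD for all 21 called clusters. The same was true of 88.6% of the clusters at the criteria of the study, which were likewise chosen for a difference between HD and LD. Of the way from LD to HD, MD had covered 77.4% for FN1, 63.4% for NRCAM, 73.5% for CATSPERB and 66.2% for ADH6. CCL20 reached 75.3% and CXCL8 55.9% of the way at MD, and NFKB2 39.8%. SNAPC1, ZNF57 and ZNF555 had hardly moved there, at 14.7%, 13.2% and 3.75%.

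**Figure D3:**
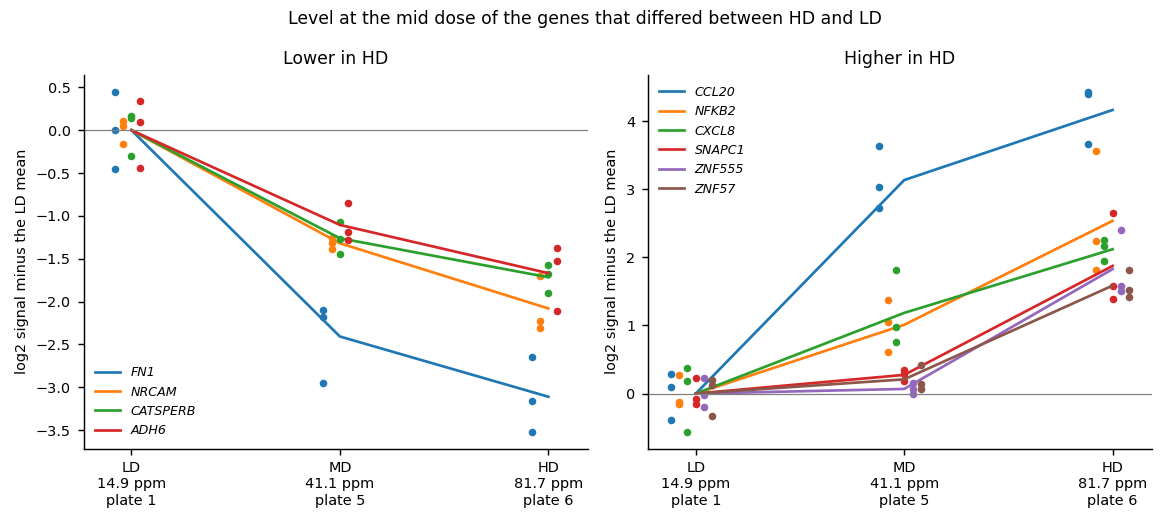
Log2 signal minus the LD mean (y axis) of the 10 called genes at LD, MD and HD (x axis, ppm and exposure plate), with arrays as points and group means joined by lines. The 4 lower genes cover 63.4% to 77.4% of their difference by MD, whereas SNAPC1, ZNF57 and ZNF555 sit near LD at MD.

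A further set of genes had large differences between HD and LD without passing the adjusted p, and differences of like size between the plates of the controls. EGR1, an immediate early transcription factor, had 8.57, 8.85 and 9.62 in HD and 4.85, 4.80 and 4.92 in LD, where it lay close to the negative controls. The plate 6 controls stood with HD, at 8.69 in CA and 9.17 in NEC, and the plate 1 controls near LD, at 5.57 in CA and 5.08 in NEC. HD minus LD was 4.16 (SE 0.96, adjusted p = 0.183), and 0.56 (SE 0.48, unadjusted p = 0.27) with the plate block.

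AKAP12, a scaffold for protein kinase A, had 11.99, 12.76 and 12.99 in HD and 9.16, 10.05 and 9.25 in LD, with 11.92 and 11.78 in CA and NEC of plate 6 and 8.83 and 9.36 in CA and NEC of plate 1. The nuclear ERK phosphatase DUSP5 had 12.53, 13.11 and 13.28 in HD and 10.24, 10.71 and 9.85 in LD. Its difference of 2.71 (adjusted p = 0.251) became -0.18 with the block, since the controls differed by 3.02 in CA and 2.77 in NEC. ATF3, a stress-induced factor of the ATF family, differed by 2.68 (adjusted p = 0.152), with 1.56 in CA and 2.49 in NEC.

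Of 20 measured AP-1 and immediate early genes, 9 met the criteria of the study, all higher in HD, against 0.95% of all genes. All 20 had a positive difference (19 with bright centring), as had 66.4% of all genes (42.1% with bright centring). With the plate block 2 members met the criteria higher and 2 lower. The median was 0.86, beside plate medians of 0.94 in CA and 0.78 in NEC, and -0.01 with the block. In 6 of the 9 both controls reached 0.5 times HD minus LD in the same direction. JUN, the partner of FOS in AP-1, differed by 1.69 (controls 2.64 in CA and 0.99 in NEC) and MYC by 1.28 (controls 1.69 and 1.77). PHLDA1, an early gene downstream of ERK, was an exception, with 10.05, 10.54 and 10.47 in HD and 8.88, 9.09 and 8.91 in LD, a difference of 1.39 (adjusted p = 0.0533) and controls of -0.05 in CA and 0.29 in NEC. IER2, another early gene, differed by 2.08 (adjusted p = 0.0718), with 1.21 in CA and 0.76 in NEC. Its LD arrays, at 4.64, 4.88 and 4.78, lay close to the negative controls, so the size of its differences is limited by background. The 15 genes of ERK feedback held 4 at the criteria, all higher (1 higher and 1 lower with the plate block), against 0.95% of all genes. Their median was 0.54 beside 0.68 in CA and 0.71 in NEC. DUSP6, the cytoplasmic ERK phosphatase, differed by 2.10 (controls 1.69 in CA and 1.63 in NEC).

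Over all clusters 9 were called by limma between plates 6 and 1 in the blocked fit, all higher on plate 6 (0.00663%, and 1.12% were higher at the criteria of the study), and 8 of them carry a single symbol. EGR1, DUSP5 and AKAP12 are among them. In BPIFA1, HGF and JCHAIN the LD arrays lay near the plate 1 controls while the HD arrays did not reach the plate 6 controls. BPIFA1, a secreted defence protein of the airway surface, had 4.57, 5.03 and 5.61 in HD and 4.82, 3.89 and 4.20 in LD, close to the negative controls. The plate 6 controls had 8.56 in CA and 8.17 in NEC and the plate 1 controls 4.70 in CA and 4.33 in NEC. HD minus LD was 0.77 (adjusted p = 0.869) and -3.08 with the block (SE 0.44, unadjusted p = 5.87e-06, adjusted p = 0.257). HGF, hepatocyte growth factor, had 7.80, 8.49 and 8.90 in HD and 7.79, 8.13 and 7.02 in LD, with 10.56 and 10.33 in CA and NEC of plate 6. JCHAIN, the joining chain of polymeric immunoglobulins, differed by 0.09 between HD and LD and by 1.89 and 1.80 between the plates in CA and NEC. BPIFA1 was chosen after its values were seen, as were HGF and JCHAIN.

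**Figure D4:**
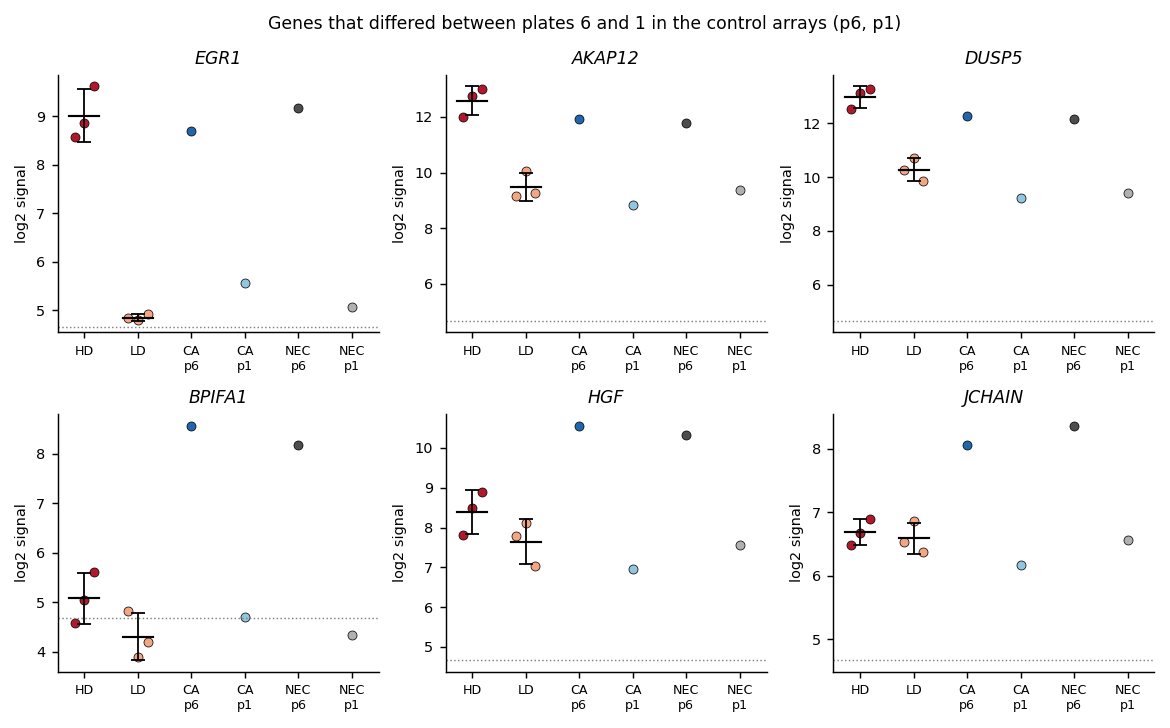
Log2 signal (y axis) of 6 genes called between plates 6 and 1 in the controls, with each array as a point, group means and SD as bars for the 3 HD and 3 LD arrays, and the single CA and NEC arrays of plates 6 (p6) and 1 (p1). For EGR1, AKAP12 and DUSP5 the plate 6 controls stand near HD, whereas for BPIFA1, HGF and JCHAIN they stand above both HD and LD.

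Across the 5994 bright protein-coding genes, HD minus LD correlated with plate 6 minus plate 1 at r = 0.28 in CA and r = 0.09 in NEC, and the CA and NEC differences with each other at r = 0.30. These are correlations across genes, which are not independent replicates, and the arrays of a plate share its handling. Of the 318 genes higher under the criteria of the study, both controls had the same sign in 182 and 0.5 times the size or more in 69, against 10884 and 7308 of all 33458 genes. Of the 77 lower genes, both controls had the same sign in 23 and 0.5 times the size or more in 1, and the opposite sign in 23.

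Genes of the integrated stress response were also higher in part. Of 26 measured ATF4 and CHOP targets, 11 met the criteria of the study, all higher (8 with bright centring), against 0.95% of all genes, none was called, and 20 did not overlap between the groups with HD higher (against 14% of all genes). The median HD minus LD was 0.81, beside plate medians of 0.36 in CA and 0.77 in NEC, and 0.20 with the block. In the blocked fit 2 members met the criteria higher, DDIT3 (1.44) and CHAC1 (1.70), and 1 lower. DDIT3, which encodes CHOP, had 7.89, 7.56 and 8.55 in HD and 5.80, 6.52 and 6.03 in LD, a difference of 1.88 (SE 0.30, adjusted p = 0.0533), with 0.22 in CA and 0.68 in NEC. CHAC1, an enzyme that degrades glutathione, had 7.09, 7.26 and 7.33 in HD and 4.58, 5.84 and 5.62 in LD, a difference of 1.88 (SE 0.33, adjusted p = 0.0718), with 0.21 in CA and 0.15 in NEC.

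Other members went with the plates in part. ASNS, asparagine synthetase, differed by 1.56 (adjusted p = 0.0885), with 0.16 in CA and 1.00 in NEC, and PSAT1, of serine synthesis, by 1.34 (adjusted p = 0.0718), with 0.38 and 0.77. GDF15, a secreted stress cytokine, differed by 2.11 (adjusted p = 0.0571), with 1.42 and 1.08. ATF4 itself differed by 1.18 (adjusted p = 0.354) against 0.99 in CA and 1.17 in NEC, and PHGDH, the first enzyme of serine synthesis, by 1.51 against 1.60 and 2.12, which left -0.35 with the block. All 17 aminoacyl-tRNA synthetases, which load amino acids onto tRNA and include ATF4 targets, had positive differences (15 of 17 with bright centring). The same held for 66.4% of all genes (42.1% with bright centring). The median of the 17 synthetases was 0.63 beside 0.48 in CA and 0.46 in NEC. Of these GARS1 differed by 1.21 (adjusted p = 0.161) and NARS1 by 0.85 (adjusted p = 0.228).

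The promoters of CHAC1 and ASNS are shown because both genes belong to that list and hold the composite motif of ATF4 and CEBP factors. The motif TGATGNAA was searched on both strands and stood in 3.62% of 35116 RefSeq windows of 300 bases around a gene's start. At least 1 window held it in 4 of 21 matched genes of the ATF4 and CHOP list (ASNS, CHAC1, FGF21 and SLC3A2). The same was true of 6 of 14 aminoacyl-tRNA synthetases (AARS1, CARS1, GARS1, IARS1, NARS1 and TARS1). A gene can have several windows, so these counts are not on the scale of the share over windows. A match describes the sequence and is no evidence of binding here. Capitals mark the match, which lies 209 to 202 bases before the start in CHAC1, on the opposite strand, and 68 to 61 bases before it in ASNS. The windows are chr15:40953221-40953520 (plus strand) for CHAC1 and chr7:97872359-97872658 (minus strand) for ASNS, in GRCh38.p14. ASNS has 2 windows, and only the 1 with the match is shown.
CHAC1: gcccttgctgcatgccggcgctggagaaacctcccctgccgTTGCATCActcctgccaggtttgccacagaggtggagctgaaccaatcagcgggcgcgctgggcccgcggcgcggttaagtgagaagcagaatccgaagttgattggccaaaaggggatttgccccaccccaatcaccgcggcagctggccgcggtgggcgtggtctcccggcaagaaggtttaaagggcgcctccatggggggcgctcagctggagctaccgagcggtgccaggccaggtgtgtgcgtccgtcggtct
ASNS: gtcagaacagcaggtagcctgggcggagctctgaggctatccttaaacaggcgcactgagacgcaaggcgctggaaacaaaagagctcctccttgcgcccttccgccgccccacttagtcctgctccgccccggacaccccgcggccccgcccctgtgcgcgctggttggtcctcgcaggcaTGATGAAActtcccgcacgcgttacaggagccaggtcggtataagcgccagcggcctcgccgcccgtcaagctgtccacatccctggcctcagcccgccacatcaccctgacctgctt

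The p53 targets held 5 of 22 genes at the criteria, all higher, against 0.95% of all genes (1 of 22 with the plate block), with a median of 0.62 beside 0.32 in CA and 0.46 in NEC. GADD45A, a growth arrest and DNA damage gene, had 10.20, 10.44 and 10.69 in HD and 8.71, 9.18 and 8.57 in LD, a difference of 1.62 (adjusted p = 0.0571), with 0.08 in CA and 0.81 in NEC. The cyclin-dependent kinase inhibitor CDKN1A differed by 1.99 (adjusted p = 0.181) and the p53 ubiquitin ligase MDM2 by 1.57 (adjusted p = 0.129), and in both the controls differed by more than 0.5 times as much, at 1.45 and 1.21 in CA and 1.66 and 1.22 in NEC. PMAIP1, the BH3-only protein NOXA of the apoptosis list, differed by 1.72 (adjusted p = 0.0885), with controls of opposite sign (0.97 in CA and -0.29 in NEC).

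Replication-dependent histone genes were higher in HD in 40 of 41 (39 with bright centring), as were 66.4% of all genes (42.1% with bright centring). Their median was 0.80 beside 0.68 in CA and 0.21 in NEC. Of the 41, 9 met the criteria, all higher (5 with bright centring and 1 with the plate block), against 0.95% of all genes. H1-3, a linker histone, had 8.03, 8.43 and 8.62 in HD and 7.12, 7.31 and 6.27 in LD, a difference of 1.46 (adjusted p = 0.0939), with 0.49 in CA and -0.22 in NEC. Histone genes of 1 class are near-identical, so single members are uncertain. The S100 calcium-binding proteins had a like median of 0.80, beside 0.43 in CA and 0.10 in NEC, with 6 of 17 at the criteria, all higher, against 0.95% of all genes. For this list the count was 4 after quantile normalization, 2 with bright centring and 0 with the plate block. S100A11 had 15.54, 15.97 and 15.75 in HD and 14.82, 14.67 and 14.66 in LD (difference 1.03, adjusted p = 0.146), and S100A6 and S100A16 differed by 1.09 and 1.18. MT2A, a metallothionein that binds zinc and other metals, had 13.87, 13.91 and 14.14 in HD and 12.84, 12.80 and 12.63 in LD, a difference of 1.22 (adjusted p = 0.111), with 0.19 in CA and 0.29 in NEC. The metallothioneins and zinc transporters had positive differences in 10 of 10 genes (9 with bright centring), as had 66.4% of all genes (42.1% with bright centring). Their median was 0.71 beside 0.42 in CA and 0.59 in NEC, and 0.29 with the block. Of the 10, 2 met the criteria, both higher (0 with the plate block), against 0.95% of all genes. Besides MT2A this was MT1F, which differed by 1.29 beside 0.87 in CA and 1.04 in NEC (blocked difference 0.33).

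All 17 measured enzymes of cholesterol synthesis had a positive HD minus LD (15 with bright centring), as had 66.4% of all genes (42.1% with bright centring). Of the 17, 3 met the criteria, all higher (0 with bright centring and 0 with the plate block), against 0.95% of all genes. The median was 0.61, beside 0.39 in CA and 0.87 in NEC, and 0.08 with the block. The mean log2 signal of the 17 was 13.81, 14.13 and 14.21 in HD and 13.38, 13.59 and 13.16 in LD. It was 13.35 in CA and 13.32 in NEC on plate 6, below all 3 HD arrays, and 12.92 in CA and 12.43 in NEC on plate 1, below all 3 LD arrays. HMGCS1, the HMG-CoA synthase at the head of the pathway, had 17.79, 17.75 and 18.00 in HD and 16.80, 17.04 and 16.92 in LD (difference 0.93, adjusted p = 0.275). Its controls differed by 0.65 in CA and 1.04 in NEC, and its blocked difference was 0.08. NPC1 of the sterol uptake list, which exports cholesterol from lysosomes, went beyond its controls, with a difference of 1.51 (adjusted p = 0.0885) beside 0.37 in CA and 0.68 in NEC.

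**Figure D5:**
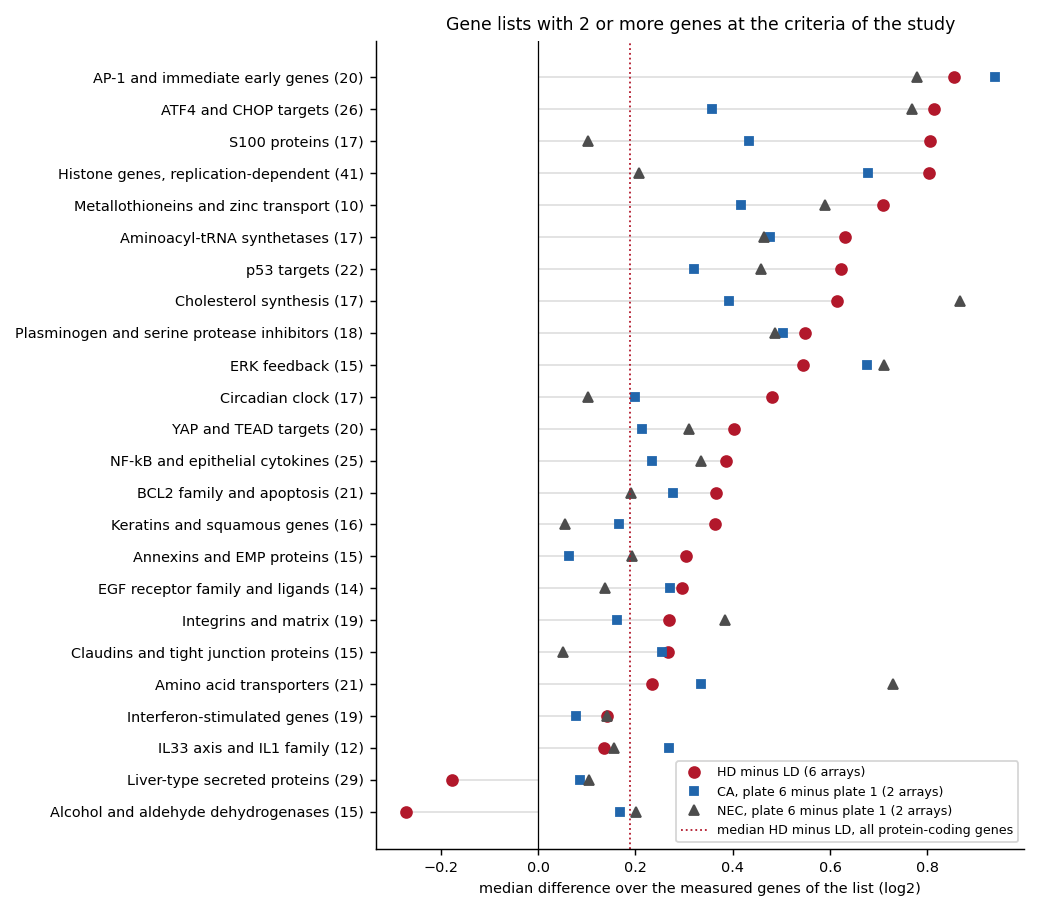
Median difference over the measured genes (x axis, log2) of 24 gene lists that held 2 or more genes at the criteria of the study (y axis, number of measured genes in parentheses), as HD minus LD (circles), plate 6 minus plate 1 in CA (squares) and in NEC (triangles). The dotted line is the median HD minus LD of all protein-coding genes, 0.19. The liver-type secreted proteins and the alcohol and aldehyde dehydrogenases lie left of 0 with controls to its right, and the AP-1 and ERK feedback lists lie beside their controls.

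Among the ligands of the EGF receptor, HBEGF had 7.42, 7.76 and 7.79 in HD and 6.59, 6.55 and 6.53 in LD, a difference of 1.10 (SE 0.20, adjusted p = 0.0812), while both controls were lower on plate 6 (-0.28 in CA and -0.53 in NEC), so the blocked difference was 1.50 (SE 0.29, unadjusted p = 0.000124, adjusted p = 0.384). EREG, epiregulin, had 9.94, 9.99 and 9.86 in HD and 8.14, 8.15 and 8.25 in LD (difference 1.75, adjusted p = 0.114), with 0.54 in CA and 1.62 in NEC. PLEK2, a pleckstrin family protein of the actin cytoskeleton chosen after its values were seen, had 7.97, 8.04 and 8.08 in HD and 6.86, 5.80 and 6.22 in LD. Its difference was 1.74 (adjusted p = 0.0543) with -0.61 in CA and -0.26 in NEC. SPINK1, a trypsin inhibitor, differed by 1.24 (adjusted p = 0.205) with -0.06 and -0.12 in the controls, whereas the protease inhibitor TFPI2 differed by 1.44 against 1.50 in CA and 2.28 in NEC.

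MUC5B, SLC4A4 and FMO5 had lower values in HD while the plate 6 controls were higher. Most genes of their lists went the other way. Higher in HD were 15 of 23 mucins and airway secretory proteins, 15 of 19 genes of acid-base and ammonium transport and 12 of 18 amine metabolising enzymes. Of the claudins and tight junction proteins, which include CLDN2, 11 of 15 were higher, against 66.4% of all genes. MUC5B, a gel-forming airway mucin, had 14.27, 14.49 and 14.98 in HD and 15.93, 16.32 and 15.05 in LD (difference -1.19, adjusted p = 0.252), with 0.54 in CA and 0.80 in NEC. SLC4A4, a sodium bicarbonate cotransporter, differed by -0.82 (adjusted p = 0.392) beside 0.77 and 0.63, and FMO5, a flavin monooxygenase, by -1.02 (adjusted p = 0.208) beside 0.52 and 0.13. CLDN2, a pore-forming claudin of tight junctions, had 12.94, 13.37 and 13.24 in HD and 14.20, 14.38 and 14.03 in LD (difference -1.02, adjusted p = 0.122) with controls of -0.06 in CA and 0.10 in NEC. The clock repressor NR1D2 had 12.80, 13.04 and 13.20 in HD and 11.75, 11.40 and 11.34 in LD (difference 1.52, adjusted p = 0.0571), with 0.48 in CA and 0.84 in NEC.

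Other lists held few or no genes at the criteria, which 1.18% of all genes met, so that a count of 0 or 1 in a list of this size does not set it apart. NRF2 targets had 1 of 23, HMOX1 (6.68 in HD, 5.48 in LD, adjusted p = 0.161), and their median of 0.14 was near that of all genes. ER chaperones and the XBP1 branch had 1 of 20, the chaperone HSP90B1 (7.62 in HD, 8.68 in LD, adjusted p = 0.461), and HSPA5, the main chaperone of the endoplasmic reticulum, was 15.54 in HD and 15.20 in LD. None met the criteria among 25 respiratory chain subunits, 18 cytosolic ribosomal proteins, 19 genes of acid-base and ammonium transport, 14 of polyamine metabolism or 17 alveolar type II and surfactant genes.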

How the data were processed

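RNA of A549 cells was measured on Clariom D arrays. The authors deposited log2 values after RMA (background correction, quantile normalization and median polish over the 15 arrays, in Transcriptome Analysis Console, hg38 annotation), and arrays carry no read depth, so the number of arrays limits the precision. Here 135750 clusters were analysed and 2995 control probe sets left out, and 36176 clusters carry 1 symbol, 1119 several and 98455 none. For a symbol with several clusters 1 was kept, which gave 33458 genes. A limma model (version 3.58.1, R 4.3.3) was fitted over the 5 groups with Benjamini-Hochberg adjustment over all clusters, and again with the exposure plate as a block. Named genes were the 15 largest calls per direction without overlap, filled to 10 with genes at the criteria of the study, and up to 4 genes per list. The members and the 50 lists were chosen with earlier results of these data known. Alternatives were other scalings, filters, variance priors, sample sets and leaving out each array. Both fits were tested on simulated data with 50 planted changes. The fit without a plate term recovered 4 at 2-fold, 44 at 4-fold and 49 at 8-fold. With the plate block 0, 15 and 37 were recovered.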

Additional observations from a re-analysis of the deposited data

Results flagged for a closer look

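In 13 named genes the HD and LD arrays did not overlap while plate 6 minus plate 1 went the opposite way in both CA and NEC. Among all genes, with or without overlap, both controls went the opposite way in 24.15%. The blocked value is HD minus LD less these same control differences, so its larger size follows from the choice of genes. The unadjusted p-values of the blocked fit below are therefore no independent support. None of the 13 passed limma's adjusted p there (0.384 to 0.559).

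Higher in HD were PLEK2 (HD minus LD 1.74, blocked 2.17, unadjusted p = 0.00014), SPINK1 (1.24, blocked 1.33, unadjusted p = 0.0166) and HBEGF (1.10, blocked 1.50, unadjusted p = 0.000124).

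Lower in HD were SLITRK6 (-1.61, blocked -2.01, unadjusted p = 0.000395), SEMA3E (-1.48, blocked -1.69, unadjusted p = 0.00476), IL33 (-1.45, blocked -1.65, unadjusted p = 0.00219) and MUC5B (-1.19, blocked -1.86, unadjusted p = 0.00171). The chaperone HSP90B1 (-1.06, blocked -2.07, unadjusted p = 0.00169), the complement component C5 (-1.06, blocked -1.45, unadjusted p = 0.00206) and FMO5 (-1.02, blocked -1.34, unadjusted p = 0.00331) followed. SLC4A4 (-0.82, blocked -1.53, unadjusted p = 0.000701) and the membrane mucin MUC13 (-0.73, blocked -0.83, unadjusted p = 0.0277) had the smallest differences.

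IL1RL1 met the same conditions (HD minus LD 2.57, -0.01 in CA and -0.12 in NEC), but its means in LD, CA and NEC lay below the negative controls, so the signs of its control differences and its blocked value (2.64) cannot be read. SEMA3E lay below the negative controls in HD, so its differences are limited by background there.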

How the results depend on the processing

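Against 21 clusters called between HD and LD, 35 were called after quantile normalization, 35 with the arrays centred on bright genes, 45 among clusters above the negative controls, 58 with an intensity trend and robust prior, 1 without moderation, 100 among clusters with 1 symbol, 2 with only the HD and LD arrays and 0 with the plate as a block. Leaving out an HD or LD array gave 0 to 23. With the plate block 0 were called, and 0 to 1 with an array left out. Between plates 6 and 1 in the controls 9 were called, 14 with the trend and robust prior, 0 without moderation, 34 among clusters with 1 symbol and 0 to 0 without a CA or NEC array.

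Dose arrays of the same replicate number did not deviate together (r between -0.094 and 0.06 over 9 pairs), so they share only a number, and a replicate block on the dose arrays called 4, against 16 without it, a fit added after seeing the data.

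With the plate block the sign turned for DUSP5 (-0.18), TXNRD1 (-0.065), HSPA5 (-0.086), TFPI2 (-0.45), DUSP1 (-0.41), HGF (-2.44), MYC (-0.45), JCHAIN (-1.75), NR4A3 (-1.41), JUN (-0.13), BPIFA1 (-3.08), PHGDH (-0.35) and BCAT1 (-0.76), and the cause was not tested. JCHAIN, at 0.09 without the block, was also -0.092 with bright centring and ranged from -0.013 to 0.23 with an array left out.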
